A study of Saccharomyces cerevisiae with 9 samples.

Results

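Yeast cells lacking Rpa34 (rpa34Δ) were compared with the wild type (WT) by native elongating transcript sequencing of RNA polymerase I (Pol I), over every nucleotide of 1 gene, the 35S ribosomal RNA gene. In this assay Pol I is immunoprecipitated with its RNA, and each read marks the position of an RNA 3′ end. The comparison used 3 rpa34Δ and 3 WT libraries, 6 of the 9 in the series, and all 6858 positions of the table that holds them. Both groups were untreated Saccharomyces cerevisiae, and they differ, as far as the labels say, in the deletion alone. No strain background, allele or number of clones is given in the sources used here. Whether replicates were grown separately is not said, and the p-values cover only the spread among these libraries, which may be technical. The rows cover the 35S gene only, so the loss of RPA34 RNA could not be checked in the libraries.

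Pol I transcribes a single long precursor in which 18S, 5.8S and 25S rRNA are separated and flanked by spacers that are cut out and degraded. Rpa34 and Rpa49 form a dimer on Pol I with structural likeness to TFIIF, an initiation and elongation factor of Pol II, and the Rpa34-Rpa49 dimer is known to aid elongation and RNA cleavage by the enzyme. In steady transcription the density of 3′ ends at a nucleotide reflects how long the polymerase stays there, so a tall peak is commonly read as a pause. A 3′ end of finished rRNA, or one left by cutting of the precursor, looks the same as a nascent one if it comes down with the polymerase. Ends left by cutting can lie in the spacers too. Finished rRNA is more abundant for the mature sequences than for the spacers. These kinds of end cannot be told apart here, in either class. For that reason the spacers and the mature rRNA were scaled apart, and levels are given as reads per 1000000 spacer reads (sRPM) or per 1000000 mature rRNA reads (mRPM) of the same library.

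The table follows RDN37-2, read from the minus strand of chromosome XII (460712 to 467569, build R64), and its position 1 lies at 467569. The spacers are ETS 1 (positions 1 to 700), ITS 1 (2501 to 2861), ITS 2 (3020 to 3251) and ETS 2 (6648 to 6858), with 1504 positions in all. The mature rRNA is 18S (701 to 2500), 5.8S (2862 to 3019) and 25S (3252 to 6647), with 5354 positions. The rpa34Δ libraries held 2654736 to 3575357 reads, of which 146569 to 227922 lay in spacers, and the WT libraries 4448068 to 5353045 reads, of which 401859 to 573098 lay in spacers. Spacers took 5.51% to 6.37% of reads in rpa34Δ and 8.91% to 10.7% in WT. A single read was therefore worth 4.39 to 6.82 sRPM in rpa34Δ and 1.74 to 2.49 in WT. These reads set the counting error, and 13 positions were at 0 in every library, 9 of them where a mature rRNA ends (2499 to 2501, 3018 to 3020 and 6647 to 6649).

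The RNA around the most changed positions is shown first, since many of the largest changes were at single nucleotides or short runs, as written in the deposited table. Each run is 5′ to 3′ and spans 31 nt, with the named position in capitals. The spacer positions that rose most lie in ETS 1 and ITS 1. In the first run the capitals are positions 136 to 140, the neighbours that rose together around position 138.
Position 138, chrXII:467417-467447, minus strand: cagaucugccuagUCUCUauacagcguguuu
Position 2554, chrXII:465001-465031, minus strand: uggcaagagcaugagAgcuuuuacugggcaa

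The 6 spacer positions that fell most all lie in ETS 1. The base before the capital is G in 5 of these 6 runs, and 24.3% of all tested spacer positions follow a G.
Position 98, chrXII:467457-467487, minus strand: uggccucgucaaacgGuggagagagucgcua
Position 405, chrXII:467150-467180, minus strand: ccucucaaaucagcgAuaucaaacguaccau
Position 279, chrXII:467276-467306, minus strand: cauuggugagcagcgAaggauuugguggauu
Position 292, chrXII:467263-467293, minus strand: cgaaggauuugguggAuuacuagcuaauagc
Position 336, chrXII:467219-467249, minus strand: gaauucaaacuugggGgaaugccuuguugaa
Position 487, chrXII:467068-467098, minus strand: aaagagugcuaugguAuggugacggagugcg

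In mature rRNA the 3 largest rises lay in 25S and the 3 largest falls in 18S.
Position 6399, rise, chrXII:461156-461186, minus strand: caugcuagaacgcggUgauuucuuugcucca
Position 5094, rise, chrXII:462461-462491, minus strand: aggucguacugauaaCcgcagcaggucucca
Position 5184, rise, chrXII:462371-462401, minus strand: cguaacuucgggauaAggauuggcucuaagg
Position 711, fall, chrXII:466844-466874, minus strand: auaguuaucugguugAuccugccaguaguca
Position 707, fall, chrXII:466848-466878, minus strand: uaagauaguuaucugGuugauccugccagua
Position 1899, fall, chrXII:465656-465686, minus strand: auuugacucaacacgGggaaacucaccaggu

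Within the spacers the profile of rpa34Δ was rearranged far beyond the spread between libraries. Turning the spacer profile of any rpa34Δ library into that of any WT library would mean moving 28.5% to 31.0% of its reads to other positions, against 5.53% to 7.06% between rpa34Δ libraries and 6.80% to 8.09% between WT libraries. In mature rRNA the same measure was 9.01% to 10.8% between strains, against 3.66% to 5.47% between rpa34Δ libraries and 4.38% to 6.31% between WT libraries. Over windows of about 50 nt it was 14.8% to 16.2% in spacers between strains, against 1.98% to 2.95% between rpa34Δ libraries and 3.71% to 5.89% between WT libraries, so that reads differed in place both within windows and between them. This measure was chosen after the data were seen and includes counting noise.

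Each position with a mean of at least 50 sRPM in spacers, or 10 mRPM in mature rRNA, was tested with limma on log2(value + pseudocount), the pseudocount being 50 in spacers and 10 in mature rRNA. All log2 changes refer to that scale and are too small for low positions. Of 1358 spacer positions tested, 782 passed the adjusted threshold of 0.05 (57.6%), 379 higher (27.9%) and 403 lower (29.7%) in rpa34Δ. The groups' libraries did not overlap at 62.2% of tested spacer positions and at 46.8% of tested mature rRNA positions. In the spacers limma pooled the spread fully across positions, which gives very small p-values; taken alone, a position with 3 libraries against 3 cannot go below an exact permutation p of 0.1. The 20 spacer positions with the largest rises and falls also passed by edgeR's quasi-likelihood test on the recovered reads (largest adjusted p 6.01e-41). They were picked as the largest changes from the same reads, so this shows only that their calls did not depend on limma.

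ETS 1, the 5′ external spacer and the longest of the 4, held both the deepest falls and the steepest rise. Of its 656 tested positions 285 fell (43.4%) and 159 rose (24.2%), against 29.7% and 27.9% of all tested spacer positions. The median log2 change was -0.24, against -0.0057 over all tested spacer positions. The position with the largest rise was 138, a U in the run UCUCU, which had 10971, 11342 and 8805 sRPM in rpa34Δ, against 204, 231 and 265 in WT. It was thus low in every WT library, below the 665 sRPM of an even spacer profile, and one of the taller peaks in every rpa34Δ library, 44.4-fold higher on average (log2 change 5.20, SE 0.127). Its neighbours 136, 137, 139 and 140 rose too, with log2 changes from 2.41 to 2.72. Farther out, 134, 135, 141 and 142 rose less, with log2 changes of 0.87, 1.21, 0.70 and 0.80. Together the 5 positions from 136 to 140 held 20595 ± 2694 sRPM in rpa34Δ and 1867 ± 250 in WT (SD, n = 3 each). At 138 lay 50.4% ± 0.158 of these reads in rpa34Δ and 12.6% ± 1.61 in WT.

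The largest fall was at 98, a G, with 621, 689 and 723 sRPM in rpa34Δ against 10872, 12813 and 13153 in WT (log2 change -4.08, SE 0.127), an 18.1-fold lower mean. In WT it was the fifth highest spacer position, and in rpa34Δ it was close to an even profile. Position 102, an A and the highest spacer position of WT, had 4974, 5993 and 6697 sRPM in rpa34Δ and 21361, 19451 and 22270 in WT (log2 change -1.84). A few nucleotides downstream the change went the other way. Position 106, also an A, had 18476, 17677 and 20027 sRPM in rpa34Δ and 4434, 4173 and 5046 in WT (log2 change 2.03). The main peak of this cluster was therefore at 106 in all rpa34Δ libraries and at 102 in all WT libraries. Of the reads summed over 98, 102 and 106, 74.1% ± 2.31 were at 106 in rpa34Δ and 12.0% ± 0.514 in WT, and the sum was 25292 ± 1871 sRPM in rpa34Δ and 37858 ± 2265 in WT (SD, n = 3 each).

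A like pair of opposite changes was seen near the 3′ end of ETS 1. Position 622, an A, fell to 614, 799 and 793 sRPM in rpa34Δ, against 6644, 4716 and 6468 in WT (log2 change -2.92), and position 626, also an A, stood at 13516, 13215 and 14246 in rpa34Δ against 4407, 2490 and 4064 in WT (log2 change 1.93). Of the reads at these 2 positions, 94.9% ± 0.691 were at 626 in rpa34Δ and 37.7% ± 2.78 in WT. The summed reads were not equal, at 14394 ± 561 sRPM in rpa34Δ and 9596 ± 2087 in WT (SD, n = 3 each). Whether reads moved from 622 to 626 was not tested. The G at 623 between them had a mean of 6030 sRPM in rpa34Δ and 7649 in WT, a log2 change of only -0.33 (limma adjusted p = 0.036). The G at 624 had 5095 in rpa34Δ and 6093 in WT and did not pass (limma adjusted p = 0.134). Positions 625 and 627 rose along with 626 (log2 changes 1.12 and 1.23). The share at 626 given above leaves these neighbours out. Groups of neighbouring peaks were picked after their values were seen.

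At several further falls no nucleotide within 2 nt rose. The same held at 102 and 622, whose rising partners at 106 and 626 lie farther off. This check therefore does not set the falls below apart from those pairs. Positions 179 and 182 fell together, their sum being 421 ± 4.70 sRPM in rpa34Δ and 3911 ± 501 in WT (SD, n = 3 each), while the nucleotides within 2 nt of them either fell or did not pass. Position 405 had 539, 535 and 609 sRPM in rpa34Δ and 8603, 8458 and 8789 in WT (log2 change -3.83), and all 4 nucleotides within 2 nt of it fell as well. Position 336 had 1092, 1084 and 1078 sRPM in rpa34Δ and 9760, 9820 and 9402 in WT (log2 change -3.10), and again its 4 nearest nucleotides fell. The remaining named falls, at 279, 292, 487 and 414, had log2 changes from -3.54 to -2.88, with rpa34Δ means of 136 to 543 sRPM and WT means of 1300 to 5824. All 10 of the largest spacer falls lay in ETS 1 (largest limma adjusted p 5.22e-81).

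Other tall peaks of ETS 1 grew. The highest spacer position of rpa34Δ was 232, a U, with 29420, 30774 and 26821 sRPM in rpa34Δ and 11574, 12543 and 14619 in WT (log2 change 1.17). Position 163, a G, had 18797, 19928 and 15093 sRPM in rpa34Δ and 8175, 6693 and 8623 in WT (log2 change 1.19), yet the G at 165, 2 nt downstream, fell to a mean of 633 sRPM in rpa34Δ against 4222 in WT (log2 change -2.63). Position 437, a G, was high in both strains, with 18169, 18498 and 20561 sRPM in rpa34Δ and 14500, 10984 and 12633 in WT (log2 change 0.59, limma adjusted p = 0.000398). The groups did not overlap at any of these positions. At 560, a lower peak, the mean was 1073 sRPM in rpa34Δ and 235 in WT (log2 change 1.98).

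**Figure D1:**
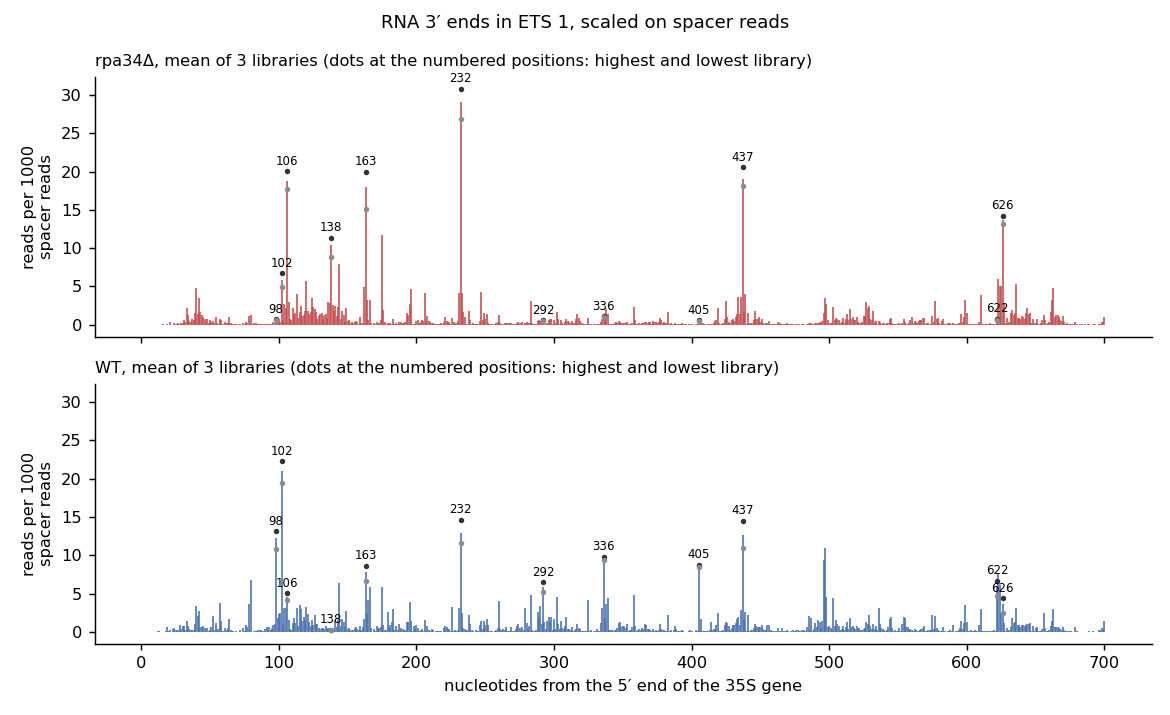
RNA 3′ ends at each nucleotide of ETS 1, in reads per 1000 spacer reads (vertical axis), for rpa34Δ above and WT below; lines are means of 3 libraries, and dots at the numbered positions are the highest and lowest library. The peaks at 98, 292, 336, 405 and 622 of WT are near the baseline in rpa34Δ, whereas 106, 138, 163, 232 and 626 are taller there.

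Summed in windows of 50 nt, ETS 1 was divided into blocks that rose and blocks that fell. Of all 30 spacer windows 20 passed by limma with adjusted p under 0.05 (66.7%), 13 higher (43.3%) and 7 lower (23.3%), and ETS 1 held 5 of each among its 14 windows. The window from 51 to 100 held 13850, 14251 and 15325 sRPM in rpa34Δ and 49677, 49607 and 49458 in WT (log2 change -1.74, SE 0.0712), and 33 of its 50 positions fell. The consecutive windows from 251 to 300, 301 to 350 and 351 to 400 had log2 changes of -1.45, -1.24 and -0.60, and that from 451 to 500 one of -1.53. In the window from 451 to 500, 35 positions fell and 0 rose. The fall there was spread over the window, its largest single part being 496 (1521 ± 131 sRPM in rpa34Δ, 9391 ± 439 in WT; SD, n = 3 each). The window from 201 to 250 rose to 66569, 66975 and 63439 sRPM in rpa34Δ, against 40310, 39359 and 44750 in WT (log2 change 0.66). Position 232 gave 16093 of its mean gain of 24188 sRPM. The positions 496, 3025, 3070, 6750 and 6803, each the largest part of its window's change, were picked after their values were seen.

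Along ETS 1 as a whole the mean distance of reads from the start did not differ beyond the spread of the libraries. The mean position was 324 ± 3.96 in rpa34Δ and 324 ± 3.27 in WT (SD, n = 3 each; exact permutation p = 1.0). The share of spacer reads in ETS 1 was 57.2%, 58.8% and 57.4% in rpa34Δ and 65.5%, 60.4% and 65.8% in WT. The groups did not overlap, and exact permutation p was 0.1, the smallest possible, or 0.14 adjusted over the 7 region shares.

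ITS 1, which lies between 18S and 5.8S, kept to shares that overlapped between strains. It held 16.3% ± 0.713 of spacer reads in rpa34Δ and 15.8% ± 1.15 in WT (SD, n = 3 each; exact permutation p = 0.6). Of 353 tested positions 97 rose (27.5%) and 58 fell (16.4%), against 27.9% and 29.7% of all tested spacer positions. The share that rose was thus close to that of the spacers as a whole. The largest change was at 2554, an A in the sequence printed above, with 4523, 4567 and 5069 sRPM in rpa34Δ against 829, 790 and 635 in WT (log2 change 2.58, SE 0.126), 6.28-fold higher on average. The A at 2552 rose too (log2 change 1.29). In windows, 2501 to 2550 and 2801 to 2861 at the ends of the spacer rose by 0.29 and 0.33 on the log2 scale, and 2651 to 2700 fell by 0.37.

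ITS 2, between 5.8S and 25S, took a larger share of the spacer reads in every rpa34Δ library than in any WT library. It held 17.1% ± 0.470 of spacer reads in rpa34Δ and 12.9% ± 0.964 in WT, without overlap (SD, n = 3 each; exact permutation p = 0.1, 0.14 adjusted). Of 230 tested positions 79 rose (34.3%) and 43 fell (18.7%), against 27.9% and 29.7% of all tested spacer positions. Position 3178, an A, had 962, 851 and 1089 sRPM in rpa34Δ and 199, 206 and 159 in WT (log2 change 2.10). The window from 3020 to 3069, next to the 3′ end of 5.8S, rose to 71847 ± 4423 sRPM in rpa34Δ, against 41938 ± 3473 in WT (SD, n = 3 each; log2 change 0.77, limma adjusted p = 3.42e-09). Its largest part was the U at 3025, with a mean of 15756 sRPM in rpa34Δ and 6102 in WT. The rise rested on a few tall positions, since the median position of this window had a log2 change of -0.18 (limma adjusted p = 0.108). In the next window, 3070 to 3119 (log2 change 0.44), the call ended with the median position and with each region scaled on its own reads (limma adjusted p up to 0.596); the U at 3070 had a mean of 4708 sRPM in rpa34Δ and 1719 in WT.

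ETS 2, the 3′ spacer, contains residues cleaved by the endonuclease Rnt1 (6663 to 6697), the terminator element T1 (6739) and a site next to T1 for the binding proteins Reb1 and Nsi1 (6757 to 6767). Of its 211 positions 119 were tested, 44 of which rose (37.0%) and 17 fell (14.3%). Over all tested spacer positions the shares were 27.9% and 29.7%. It held 8.71% ± 0.350 of spacer reads in rpa34Δ and 7.41% ± 1.14 in WT (SD, n = 3 each; exact permutation p = 0.2). Its highest position was the U at 6662, just upstream of the Rnt1 residues, with 20134, 21038 and 17870 sRPM in rpa34Δ and 12912, 19169 and 17957 in WT. The groups overlapped there and the change did not pass (log2 change 0.26, limma adjusted p = 0.158). Past T1, where most Pol I terminates, rpa34Δ had 0.914%, 0.910% and 0.857% of its spacer reads and WT 0.688%, 0.611% and 0.544%, on at least 1340 and 2644 reads. The groups did not overlap, but the exact permutation p of 0.1 was 0.2 after adjustment over the 6 parts of ETS 2. As a share of ETS 2 reads alone the same stretch overlapped between strains, at 10.3% ± 0.0577 in rpa34Δ and 8.46% ± 2.04 in WT (exact permutation p = 0.4). Between the Rnt1 residues and T1 lay 7.96% ± 0.311 of ETS 2 reads in rpa34Δ and 11.8% ± 0.738 in WT, without overlap (exact permutation p = 0.1, 0.2 adjusted).

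Of the 4 windows of ETS 2, 3 rose and 1 fell. That from 6648 to 6697, which covers the tall peak at 6662 and the Rnt1 residues, had 71325, 70695 and 66130 sRPM in rpa34Δ and 46802, 68178 and 56805 in WT, and it passed although the groups overlapped (log2 change 0.29, limma adjusted p = 0.0246). That from 6748 to 6797, past T1, had 4019, 3892 and 3634 sRPM in rpa34Δ and 2389, 2219 and 2096 in WT (log2 change 0.67, limma adjusted p = 5.22e-07). That from 6798 to 6858, the last of the gene, had a log2 change of 0.58, and this call ended with each region scaled on its own reads (limma adjusted p = 0.140). The window from 6698 to 6747, which includes T1, fell by 0.22. The positions that gained most within the windows from 6748 and 6798 were 6750 and 6803, which had means of 418 and 696 sRPM in rpa34Δ and 184 and 410 in WT.

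**Figure D2:**
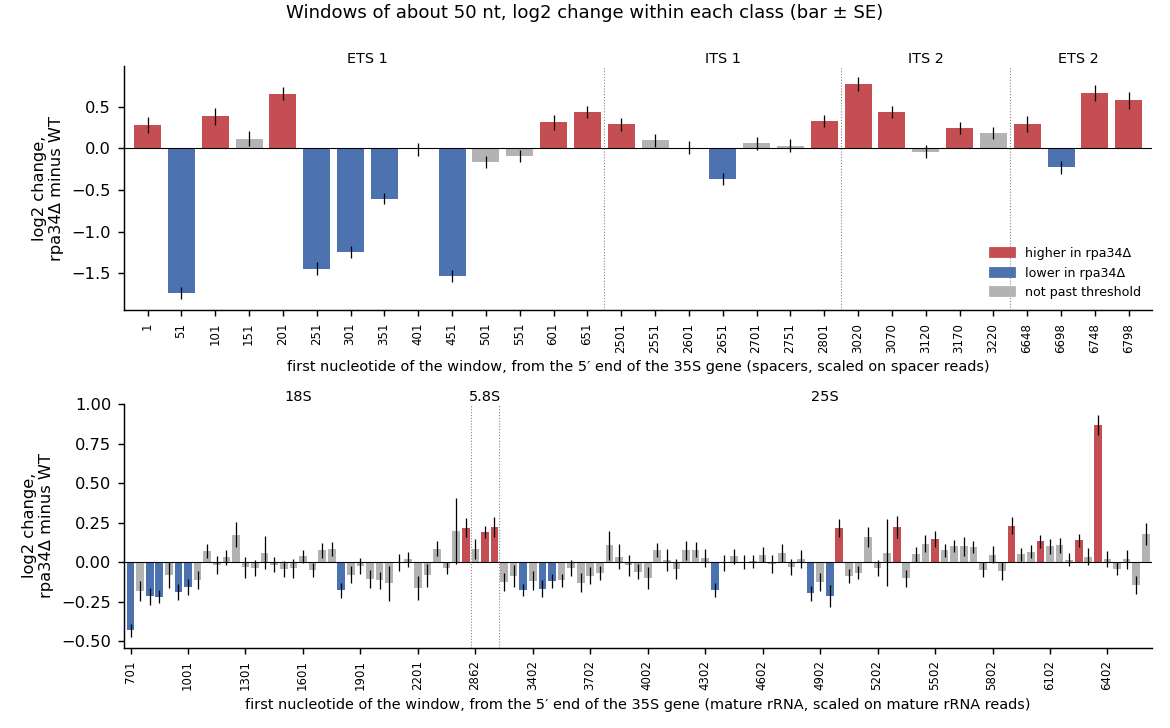
Log2 change (rpa34Δ minus WT, bar ± SE) in each window of about 50 nt, by region, with spacers scaled on spacer reads above and mature rRNA on mature rRNA reads below; red and blue mark windows past the threshold. Spacer changes reach -1.74 and 0.77, while most mature rRNA windows lie within 0.25 of 0, apart from 701 to 750 and 6352 to 6401.

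The base at the RNA 3′ end shifted in rpa34Δ, away from G and towards U. In the spacers U stood at the 3′ end of 32.7%, 32.6% and 31.7% of reads in rpa34Δ and 23.1%, 24.0% and 23.5% in WT, and G of 22.4%, 22.9% and 23.0% in rpa34Δ and 29.7%, 28.5% and 28.8% in WT. A was at 30.9%, 31.3% and 32.0% in rpa34Δ and 35.5%, 34.5% and 34.9% in WT, and C at 13.5% ± 0.357 in rpa34Δ and 12.5% ± 0.614 in WT (SD, n = 3 each). For comparison, U makes up 33.0% of spacer positions and G 22.9%, so the rpa34Δ shares were nearer to the composition of the sequence. Of the 16 base shares at the 3′ end and at the next nucleotide in both classes, 13 did not overlap between strains, each with an exact permutation p of 0.1 (0.123 adjusted over the 16). No adjusted p in this family could pass 0.05.

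The base just before the 3′ end differed as well, a measure added after the data were seen (exact permutation p = 0.1 for each base named, 0.114 adjusted over 8). G preceded the 3′ end in 30.7%, 31.5% and 32.5% of spacer reads in rpa34Δ and 41.3%, 39.8% and 40.4% in WT, and C in 20.9% ± 0.598 in rpa34Δ and 15.5% ± 0.614 in WT (SD, n = 3 each). WT spacer ends thus lay after a G far more often than the 22.9% of spacer positions that follow one, and rpa34Δ ends less so. Among the pairs formed with the last base, GpG was 8.89%, 9.04% and 9.40% of spacer reads in rpa34Δ and 14.5%, 13.8% and 13.7% in WT, and GpA 13.3% ± 0.503 in rpa34Δ and 17.1% ± 0.470 in WT. CpU went up, to 12.2% ± 0.527 in rpa34Δ against 7.17% ± 0.501 in WT (SD, n = 3 each; exact permutation p = 0.1 for each, 0.119 adjusted over 32 pairs). The gain after C was one of reads and not of the number of positions that rose: of 219 tested spacer positions after a C, 63 rose and 66 fell, with a median log2 change of -0.012. Positions 138 and 232, which had the largest gains of all CpU positions, made up 2.62 of the 5.07 points that CpU gained.

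At the next nucleotide, which Pol I would add next, U was 31.3% ± 0.259 in rpa34Δ and 35.4% ± 0.0354 in WT, and C 13.9% ± 0.267 in rpa34Δ and 11.4% ± 0.409 in WT. These too were shifts of reads and not of the number of positions. Of 451 tested spacer positions before a U 130 rose and 131 fell (median log2 change 0.035). Of 215 before a C 57 rose and 57 fell (median -0.028). The GC content of the 9 nt that end at the 3′ end, about the length of an RNA-DNA hybrid, was 41.5% ± 0.260 in rpa34Δ and 43.8% ± 0.276 in WT for spacer reads, without overlap (exact permutation p = 0.1). For mature rRNA reads it was 47.6% ± 0.0762 in rpa34Δ and 47.4% ± 0.0780 in WT, a difference that turned to -0.37 points over 5 nt.

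Fewer ends after G and more ends at U were seen both within ETS 1 and outside it. Other shares differed between these parts. G next was 37.3% in rpa34Δ and 33.6% in WT within ETS 1, without overlap. Outside ETS 1 it was 24.9% in rpa34Δ and 25.2% in WT, with overlap. Over ITS 1, ITS 2 and ETS 2 combined, G preceded 26.1% ± 0.961 of reads in rpa34Δ and 31.0% ± 0.752 in WT, and U was the last base of 38.6% ± 0.567 in rpa34Δ and 30.9% ± 0.748 in WT. In ETS 1 G preceded 35.5% ± 1.03 in rpa34Δ and 45.9% ± 0.328 in WT (SD, n = 3 each; exact permutation p = 0.1 for each, 0.128 adjusted over 60 shares). Position by position, each tested nucleotide weighing the same, the 330 spacer positions after a G had a median log2 change of -0.25, with 65 that rose and 145 that fell. The 434 spacer positions with a 3′ U had a median of 0.14, with 149 that rose and 78 that fell. Among the 10 largest spacer falls 7 followed a G, and 0 ended in U or C. Among the 10 largest rises 4 followed a G, 4 ended in U and 0 ended in G, but 5 of these rises are the adjoining positions 136 to 140. Of all tested spacer positions 24.3% followed a G, 32.0% ended in U, 15.6% in C and 23.6% in G. The counts among the 10 were not tested against these shares.

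In mature rRNA G and U at the last base moved the same ways, by smaller amounts. G was the last base of 23.4% ± 0.269 of reads in rpa34Δ and 25.6% ± 0.396 in WT, and U of 26.4% ± 0.113 in rpa34Δ and 24.6% ± 0.152 in WT. The base before was A in 26.1% ± 0.366 in rpa34Δ and 23.4% ± 0.482 in WT, and G in 33.8% ± 0.287 in rpa34Δ and 35.8% ± 0.176 in WT (SD, n = 3 each; exact permutation p = 0.1 for each, 0.123 adjusted at most). At GpG, 206 of 425 tested mature rRNA positions fell and 24 rose, against 1010 and 884 of 5326 over all. At mature rRNA positions preceded by A, 408 of 1416 rose and 120 fell. The fall of G and the rise of U at the last base were seen in 18S, 5.8S and 25S each.

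**Figure D3:**
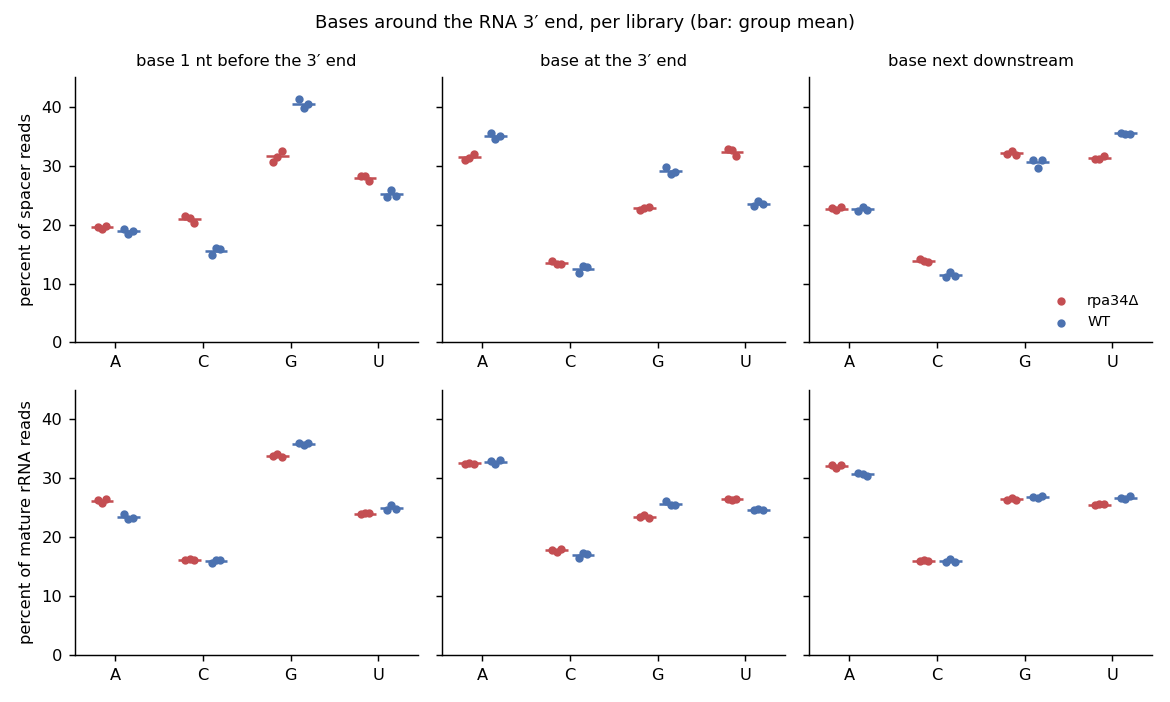
Percent of reads with each base 1 nt before the RNA 3′ end (left), at it (middle) and next downstream (right), for spacers (top row) and mature rRNA (bottom row); dots are libraries, bars are group means of 3, and rpa34Δ stands left of WT at each base. G before and at the 3′ end is lower, and U at the 3′ end higher, in every rpa34Δ library than in any WT library, in both classes.

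Within mature rRNA, scaled on its own reads, 1894 of 5326 tested positions passed (35.6%), 884 higher (16.6%) and 1010 lower (19.0%) in rpa34Δ. 25S, the RNA of the large subunit, held 62.5% ± 0.118 of mature rRNA reads in rpa34Δ and 61.7% ± 0.371 in WT, and 18S, that of the small subunit, 34.1% ± 0.204 in rpa34Δ and 35.2% ± 0.364 in WT. 5.8S, which pairs with 25S, held 3.45% ± 0.107 in rpa34Δ and 3.09% ± 0.0115 in WT (SD, n = 3 each). The groups did not overlap in these 3 regions (exact permutation p = 0.1 for each, 0.14 adjusted). Of 3385 tested positions in 25S 564 rose (16.7%) and 588 fell (17.4%). In 18S, of 1794 tested, 280 rose (15.6%) and 398 fell (22.2%). In 5.8S, of 147 tested, 40 rose (27.2%) and 24 fell (16.3%).

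The change at 6399, a U in 25S, stood out in size. It had 5705, 4317 and 3560 mRPM in rpa34Δ and 376, 475 and 420 in WT (log2 change 3.37, SE 0.153, limma adjusted p = 1.48e-10), 10.7-fold higher on average. It was the highest mature rRNA position of rpa34Δ. Its neighbours did not share the rise: those at 6398, 6400 and 6401 had log2 changes of 0.18, -0.10 and 0.05 (limma adjusted p of 0.104 or more), and only 6397 passed, at 0.69. Position 6399 gave 4104 of the 4811 mRPM gained by the window from 6352 to 6401 (log2 change 0.87, or 0.06 with the median position of the window, limma adjusted p = 0.414).

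The other rises in mature rRNA were smaller. Position 5094, a C in 25S, had 271, 243 and 198 mRPM in rpa34Δ and 67.5, 80.5 and 68.4 in WT (log2 change 1.59). Position 5184, an A in 25S, had 348, 402 and 344 mRPM in rpa34Δ and 161, 139 and 151 in WT (log2 change 1.22), and the adjoining 5183 and 5185 rose by 0.78 and 0.83. The rest of the 10 largest rises, at 6383, 4868, 5887, 3478 and 3311 in 25S and 1137 and 2421 in 18S, had log2 changes from 0.91 to 1.18. That at 2421 rested on widely spread libraries, with 108, 87.5 and 183 mRPM in rpa34Δ and 85.8, 50.6 and 43.7 in WT (limma adjusted p = 0.00491, the largest of the 10).

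Of the 10 largest falls in mature rRNA 4 lay near the 5′ end of 18S, at 707, 711, 728 and 851. Position 711, an A, had 41.9, 52.9 and 53.7 mRPM in rpa34Δ and 293, 277 and 369 in WT (log2 change -2.44, SE 0.117). Position 707, a G, had 17.1, 15.2 and 18.9 mRPM in rpa34Δ and 90.5, 91.1 and 118 in WT (log2 change -2.01), and 728 and 851 had log2 changes of -1.75 and -1.66. Farther along 18S, the G at 1899 had 178, 239 and 190 mRPM in rpa34Δ and 729, 718 and 951 in WT (log2 change -1.93). In 25S, positions 3452, 3271 and 3904, all A, had log2 changes of -1.92, -1.84 and -1.82. At 3271 the means were 137 ± 5.95 mRPM in rpa34Δ and 520 ± 27.6 in WT, and at 3904 27.8 ± 4.20 in rpa34Δ and 123 ± 7.10 in WT (SD, n = 3 each). All of the 10 largest falls were at A or G (6 and 4), and their largest limma adjusted p was 1.54e-07. Of all tested mature rRNA positions 26.6% ended in A and 27.4% in G. The counts among the 10 were not tested against these shares.

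**Figure D4:**
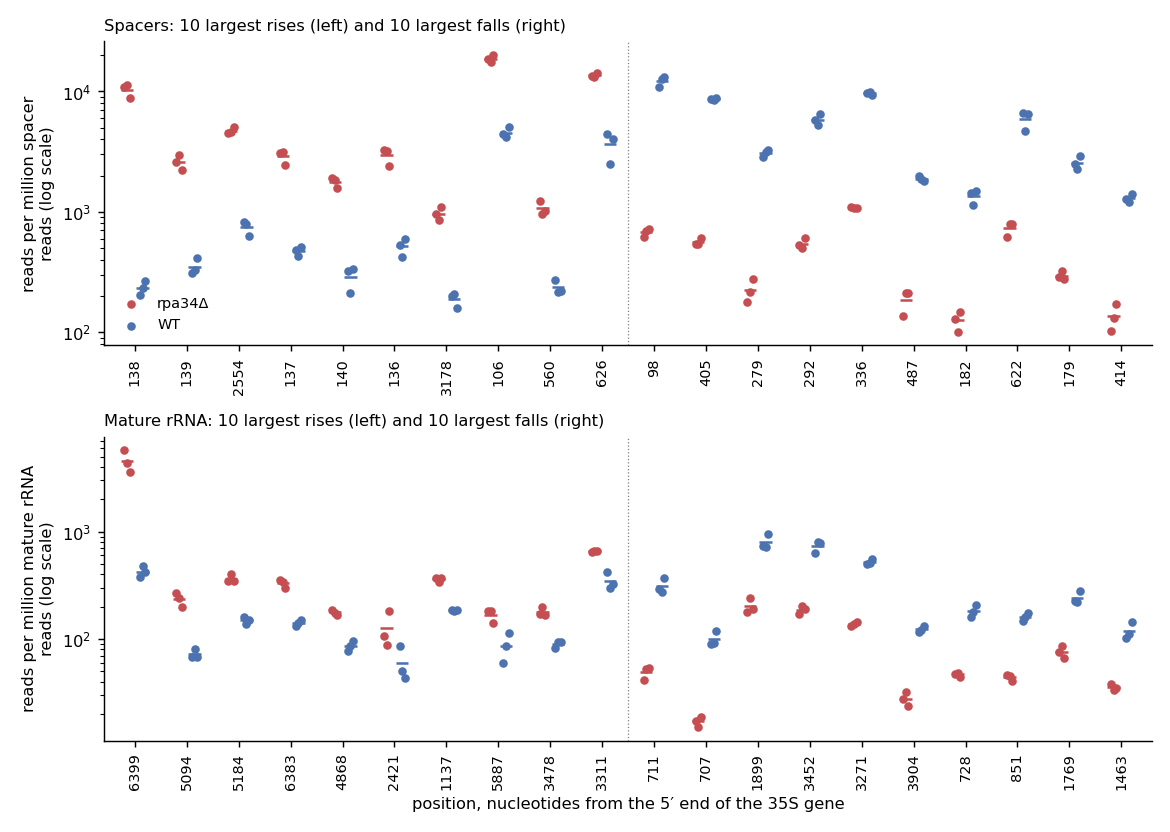
Reads per 1000000 reads of the class (log axis) at the positions that rose most (10) and fell most (10) in rpa34Δ, for spacers (top) and mature rRNA (bottom); dots are libraries, red for rpa34Δ and blue for WT, and short bars are means of 3. The positions were chosen for groups that do not overlap; the gap is widest at 138, where rpa34Δ libraries lie between 8805 and 11342 and WT libraries between 204 and 265.

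In windows, 22 of 107 in mature rRNA passed (20.6%), 10 higher (9.35%) and 12 lower (11.2%) in rpa34Δ. Of the 36 windows in 18S 6 fell and 1 rose. Those from 701 to 750, 801 to 850, 851 to 900, 951 to 1000 and 1001 to 1050 had log2 changes of -0.43, -0.22, -0.22, -0.19 and -0.16, and that from 1801 to 1850 one of -0.18. The call of 801 to 850 ended with the median position (limma adjusted p = 0.0805). The window from 701 to 750 held 7570, 7133 and 7505 mRPM in rpa34Δ and 9897, 10100 and 10040 in WT (limma adjusted p = 2.12e-06), with 33 of its 50 positions lower. It adjoins the last window of ETS 1, 651 to 700, which on the spacer scale rose by 0.43. The window of 18S that rose was its last, 2451 to 2500 (log2 change 0.22), a call that ended without rpa34Δ replicate 1 or 3, without WT replicate 2, or with the median position (limma adjusted p up to 0.664).

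The 3′ ends of the mature rRNAs held several of the tallest positions. At 2498, a U near the 3′ end of 18S, rpa34Δ had 2817, 2312 and 2625 mRPM and WT 1792, 1485 and 1526 (log2 change 0.69, limma adjusted p = 0.000775). At 6645, a U near the 3′ end of 25S, the means were 2159 ± 181 in rpa34Δ and 1590 ± 117 in WT (SD, n = 3 each; log2 change 0.44, limma adjusted p = 0.00941). The adjoining G at 6646, the highest mature rRNA position of WT, overlapped between strains, with 2730, 2683 and 2818 mRPM in rpa34Δ and 2268, 2749 and 2681 in WT (limma adjusted p = 0.578). Near the 3′ end of 5.8S the window from 2962 to 3019 rose by 0.22, which turned to -0.0045 with the median position and lost its call in 4 other settings, among them without rpa34Δ replicate 1 or 2 and without WT replicate 1. The highest 18S position of WT, the A at 1031, fell to 1304, 1458 and 1283 mRPM in rpa34Δ, against 2035, 1870 and 2214 in WT (log2 change -0.59, limma adjusted p = 0.000978).

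Reads in the spacers of rpa34Δ were somewhat more concentrated. The measures used also depend on depth, and rpa34Δ libraries had fewer spacer reads (146569 to 227922, against 401859 to 573098 in WT). The highest 1% of spacer positions of each library, 15 in number, took 20.8% ± 0.673 of spacer reads in rpa34Δ and 16.3% ± 0.555 in WT (SD, n = 3 each). The Gini coefficient, which is 0 for an even profile, was 0.685 ± 0.00771 in rpa34Δ and 0.664 ± 0.00840 in WT (SD, n = 3 each; exact permutation p = 0.1 for each, 0.133 adjusted over 4 values). In mature rRNA the Gini coefficients overlapped, at 0.407 ± 0.0105 in rpa34Δ and 0.401 ± 0.0109 in WT (exact permutation p = 0.5). The highest 1% of mature rRNA positions, 54 in number, took 6.90%, 6.67% and 6.43% of reads in rpa34Δ and 5.57%, 5.94% and 6.30% in WT, without overlap (exact permutation p = 0.1, 0.133 adjusted).

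At 102 and 106 and at 622 and 626 the upstream position fell and the downstream one rose. At 163 and 165 the order was the reverse, with log2 changes of 1.19 and -2.63. A measure over all positions was added after pairs of the former kind were seen. Each library's log2 profile was correlated with the mean WT profile displaced by 1 to 4 nt, a WT library being set against the other WT libraries. Points are nucleotides of 1 gene that share library, sequence and neighbours, so the correlations are a description. In the spacers (1500 positions at 1 nt), rpa34Δ libraries correlated with the WT profile at r = 0.562, 0.562 and 0.575 when it was moved 1 nt downstream and at 0.516, 0.519 and 0.526 when it was moved 1 nt upstream. WT libraries gave 0.611, 0.602 and 0.611 downstream and 0.603, 0.610 and 0.610 upstream. At 4 nt rpa34Δ had 0.356 to 0.362 downstream and 0.291 to 0.294 upstream. Averaged over 1 to 4 nt, the downstream minus the upstream r was 0.0478 ± 0.00370 in rpa34Δ and -1.41e-05 ± 0.00446 in WT for spacers, and 0.0201 ± 0.00544 in rpa34Δ and 1.80e-06 ± 0.00370 in WT for mature rRNA (SD, n = 3 each). A value near 0 is fixed by construction for WT, whose libraries are set against each other, so no test between the strains is given. Undisplaced, rpa34Δ libraries correlated with the mean WT profile at 0.858 to 0.870 in spacers and 0.936 to 0.955 in mature rRNA.

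**Figure D5:**
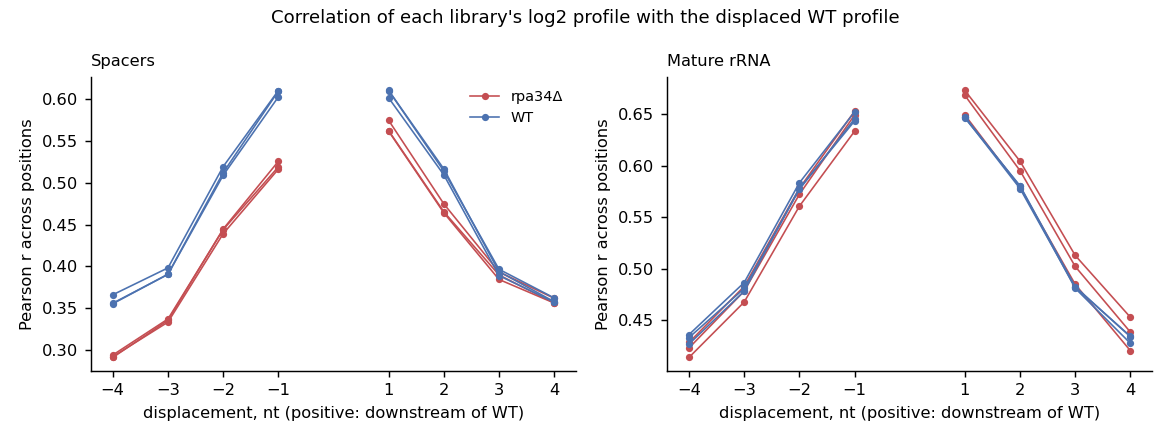
Pearson r, across positions, of each library's log2 profile with the WT profile displaced by the number of nucleotides on the horizontal axis, positive being downstream, for spacers (left) and mature rRNA (right); lines are libraries, red for rpa34Δ and blue for WT. The rpa34Δ lines are higher downstream than upstream, most clearly in spacers, where they reach 0.356 to 0.362 at 4 nt downstream and 0.291 to 0.294 at 4 nt upstream.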

How the data were processed

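The submitters' processing notes name build R64, STAR 2.7.1a (an aligner), cutadapt 3.4, bcl2fastq 2.20.00, bedtools 2.28.0, SAMtools 1.6 and R 4.0.2. The sources used here do not give their settings, the use of molecular identifiers or the placing of reads that match both gene copies. The authors deposited replicate values in RPM for each nucleotide, with its base and region. Their ratio and p-value columns were not used. These values were whole multiples of 1 step per library, so whole reads were recovered (at least 99.956% of values within 0.01 read), and depth is the sum of these reads. Each library was scaled to 1000000 spacer reads and, separately, to 1000000 mature rRNA reads. A gain of one place within a class can follow from a loss elsewhere in it.

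Positions and windows of 50 nt (a last piece under 25 nt joined to the one before) were tested class by class with limma 3.58.1 (eBayes with trend) in R 4.3.3, with Benjamini-Hochberg adjustment over both classes together. Window pseudocounts were 500 in spacers and 100 in mature rRNA. The prior degrees of freedom were infinite in spacers and 9.58 in mature rRNA, beside 4 residual ones. EdgeR 4.0.16 on recovered reads was an alternative. For values per library, exact permutation tests (two-sided, 10 splits) were run. Other steps ran in Python 3.11.15 with pandas 2.3.3, scipy 1.17.1, numpy 2.4.6 and, for plots, matplotlib 3.10.9.

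Named positions are, in each class, the 10 largest rises and 10 largest falls among positions past the threshold whose libraries did not overlap, and the 5 highest in each strain; named windows are the 5 largest rises and falls past the threshold. Other positions named are flanks within 2 nt or are said to be picked later. The comparison, its scaling and these rules were chosen with earlier results of these data known. Data for rpa34Δ against WT were also simulated, with 6677 positions. In spacers limma recovered 36% of 25 changes of 1.5-fold and 95.7% of 23 of 2-fold. In mature rRNA it recovered 89.5% of 76 and 100% of 74. It also called 0 of 1291 unchanged spacer positions and 13 of 5188 unchanged mature rRNA positions. A far smaller share of spacer positions was changed there than the 57.6% called in the libraries, so these rates may not carry over. With 137 windows it called every 1.5-fold change. It also called 3 of 24 unchanged spacer windows (12.5%) and 3 of 93 unchanged mature rRNA windows (3.23%). Some of the 20 spacer windows past the threshold may therefore be false calls.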

Additional observations from a re-analysis of the deposited data

How the results depend on the processing

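The numbers of positions past the threshold stayed within 1.5 times of 782 (spacers) and 1894 (mature rRNA) under all alternatives, edgeR among them. Leaving out 1 library gave 704 to 731 spacer and 1264 to 1937 mature rRNA positions, and 14 to 20 spacer and 11 to 24 mature rRNA windows, the 1264 and the 11 both without rpa34Δ replicate 1, against 20 and 22. Windows of 25 nt gave 41 spacer and 62 mature rRNA windows past the threshold, windows of 100 nt gave 10 spacer windows, and the median position of a window gave 13 in mature rRNA. The split of spacer windows, 13 higher and 7 lower, became 22 and 5 with median log2 values set equal, which moved the median change to 0.42 from 0.11; it was 9 and 9 by edgeR with TMM, 8 and 9 with median positions and 22 and 19 at 25 nt. That of mature rRNA windows, 10 higher and 12 lower, became 7 and 23 with medians set equal and 6 and 12 without rpa34Δ replicate 3.

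The named rises and falls of single positions kept direction and call in all 18 alternatives. Position 6662 passed without WT replicate 2 (limma adjusted p = 0.0287), and 6628 in 25S, 1685 ± 4.89 mRPM in rpa34Δ and 1602 ± 351 in WT (SD, n = 3 each; log2 change 0.10), turned to -0.098 without WT replicate 1, the range over left-out libraries being -0.098 to 0.20. With the median position, the windows from 3020 and 2962 turned to -0.18 and -0.0045. The difference in the ITS 1 share turned to -0.062 points without WT replicate 3, where leaving out 1 library gave up to 1.09, and its other alternatives were positive. Without the highest 1% of positions, the difference for A next in spacers turned to -0.43 points, for A at the 3′ end in mature rRNA to 0.035, for the share of the highest 1% of mature rRNA positions, 0.73 otherwise, to -0.073, and for the mean position in ETS 1 to 0.040 nt. GC of mature rRNA reads over 5 nt turned to -0.37 points. For C next in mature rRNA leaving out 1 library gave -0.021 to 0.23 points and for the mean position in ETS 1 -2.90 to 0.86 nt, so neither has a settled direction.

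Replicate numbers did not pair the libraries: deviations of same-numbered libraries correlated at -0.017, -0.096 and 0.0056 in spacers and -0.050, -0.020 and -0.286 in mature rRNA. Differently numbered libraries reached larger values in mature rRNA, from -0.302 (rpa34Δ replicate 2 with WT replicate 1) to 0.365 (rpa34Δ replicate 2 with WT replicate 3). With the replicate block, 729 spacer and 1619 mature rRNA positions and 14 and 19 windows passed. Depth limits the spacers of rpa34Δ most.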
